A study of Homo sapiens with 6 samples.

Results

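F-box genes were taken as the probes whose array symbol starts with FBXL, FBXO or FBXW followed by a digit. This gave 122 of the 47231 probes and 67 of the 31334 array symbols, of which 20 were FBXL, 38 FBXO and 9 FBXW genes. Expression was measured on 6 Illumina bead arrays of U2OS, a human osteosarcoma cell line. The compared groups were 3 samples with a stable shRNA knockdown of TUSC4 and 3 samples with a control shRNA, the second being called parental cells in the labels. TUSC4 is the array's symbol for NPRL2, a subunit of the GATOR1 complex that restrains the growth kinase mTORC1. Both groups were the same line, and the labels do not say whether the knockdown cells were 1 clone or a pool, or whether the 3 samples of a group were separate cultures. Each p-value thus rests on the scatter among these 6 arrays alone, and that scatter may be technical.

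F-box proteins are the interchangeable receptors of SCF ubiquitin ligases. The F-box motif binds SKP1, which joins the receptor to the cullin CUL1 and the RING protein RBX1, while a second domain of the F-box protein holds the substrate that is to be ubiquitinated. The subfamilies are named for that second domain, which is a set of leucine-rich repeats in FBXL proteins, WD40 repeats in FBXW proteins and another or no known domain in FBXO proteins. FBXL13 is a member with leucine-rich repeats that is related to a subunit of the regulatory complex of ciliary dynein, and in cultured human cells it has been reported to act on the centrosome protein CEP192.

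The sequences below are RefSeq promoter windows (GRCh38.p14), each of 300 bases from 250 before to 50 after an annotated start, read on the strand of the gene. They are shown because FBXL13 had by far the largest change of the F-box genes, and because 2 genes that RefSeq places at or inside it, ARMC10 and LRRC17, were also measured. The FBXL13 window is chr7:103074747-103075046 on the minus strand and the LRRC17 window is chr7:102912750-102913049 on the plus strand. Capitals mark GC boxes (GGGCGG on either strand), CCAAT boxes (CCAAT on either strand) and TATA boxes (TATAA on either strand).
FBXL13: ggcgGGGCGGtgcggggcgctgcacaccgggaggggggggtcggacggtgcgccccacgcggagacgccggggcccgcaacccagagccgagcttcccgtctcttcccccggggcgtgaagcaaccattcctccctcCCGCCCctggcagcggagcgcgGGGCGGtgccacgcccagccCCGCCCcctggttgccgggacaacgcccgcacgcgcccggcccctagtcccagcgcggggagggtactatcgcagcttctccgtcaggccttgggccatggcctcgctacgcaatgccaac
LRRC17: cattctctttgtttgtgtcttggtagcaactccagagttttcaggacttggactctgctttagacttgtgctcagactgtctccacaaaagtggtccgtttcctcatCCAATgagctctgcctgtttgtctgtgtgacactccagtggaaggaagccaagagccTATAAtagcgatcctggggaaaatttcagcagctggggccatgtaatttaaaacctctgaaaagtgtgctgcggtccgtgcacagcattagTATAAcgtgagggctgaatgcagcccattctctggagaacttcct

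The FBXL13 window held 36 CpG dinucleotides and 4 GC boxes, and the LRRC17 window held 5 CpG dinucleotides, 1 CCAAT box and 2 TATA boxes. Across the 35116 RefSeq windows of this length the median was 14 CpG dinucleotides, and 45.0% held a GC box, 34.6% a CCAAT box and 20.4% a TATA box. Letters of 5 other motifs were searched on both strands, CACGTG (E-box, in 7.26% of windows), TGATGNAA (bound by ATF4 with a C/EBP partner, 3.62%), GTAAACA (FOXO, 3.42%), TGACNNNGC (antioxidant element, 13.3%) and TTTCGCGC (E2F, 0.515%). None of the 5 was in the letters of either printed window. A second annotated FBXL13 start lies inside the gene, and its window held 19 CpG dinucleotides and 1 CCAAT box. Of the 67 F-box symbols, 51 had at least 1 window in the table. Their 77 windows had a median of 27 CpG dinucleotides, and 71.4% of them held a GC box.

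Each array had 20378 to 21485 probes brighter than its estimated background, and 15300 genes had a probe above it on at least 3 of the 6 arrays. TUSC4 had a log2 intensity of 8.49, 8.50 and 8.75 in the TUSC4 shRNA samples, against 9.74, 9.76 and 9.79 in the control shRNA samples (log2 fold change -1.18 ± 0.10, SE, limma adjusted p = 8.77e-07). Of the 6 markers of mesenchyme and bone that were looked up, 4 were above background, VIM and COL1A1 among them, and COL1A2 and FN1 were not. None of the 3 endothelial markers was above background, and of 4 leukocyte markers CD14 was, on 2 arrays of each group. Of the 5 epithelial markers, EPCAM, KRT8 and KRT18 were above background, and CDH1 and KRT19 were not. The summed mean signal was 14479 in TUSC4 shRNA samples and 15212 in control shRNA samples for the mesenchymal list and 1099 and 1602 for the epithelial list. VIM alone gave 12557 and 11823 of the mesenchymal sums. All these sums were taken before normalization and include the markers not above background. COL1A1, RUNX2, KRT8 and KRT18 were lower past the threshold, and the part of this in the F-box results was not tested.

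Of the 67 F-box genes, 46 were above background by the same rule, namely 14 FBXL, 25 FBXO and 7 FBXW genes, with 72 probes between them. The other 21 were FBXL4, FBXL7, FBXL8, FBXL17, FBXL21, FBXL22, FBXO6, FBXO15, FBXO22OS, FBXO24, FBXO25, FBXO27, FBXO36, FBXO39, FBXO40, FBXO41, FBXO43, FBXO47, FBXO48, FBXW10 and FBXW12. Their 26 probes gave signals of 94.1 to 152 in the TUSC4 shRNA samples and of 101 to 133 in the control shRNA samples. FBXO22OS, the one symbol that the RefSeq gene table did not match, and FBXL21, which that table lists as a transcribed pseudogene, were both among these dim genes. FBXL10, FBXL11 and FBXO18 are the array's names for KDM2B, KDM2A and FBH1.

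FBXL13 rose 6.77-fold in the TUSC4 shRNA samples and was the second largest rise among the 15300 genes tested. Its signal, before any normalization, was 606, 587 and 775 in the TUSC4 shRNA samples, against 160, 151 and 142 in the control shRNA samples. The lowest signal above background was between 117 and 132 on the 6 arrays, so the control shRNA samples were slightly above background and every TUSC4 shRNA sample was far above them. After normalization the log2 intensity was 9.30, 9.35 and 9.49 in the TUSC4 shRNA samples, against 6.65, 6.67 and 6.55 in the control shRNA samples. The log2 fold change was 2.76 ± 0.10 (limma's moderated SE, n = 3 each, limma adjusted p = 5.10e-11). Only 1.04% of all genes both passed the threshold, an adjusted p under 0.05, and changed at least 2-fold, and of the 46 F-box genes FBXL13 alone did. The size moved with the processing of the signal. It was 2.30 without background correction, 3.29 with a smaller offset of 16 in the correction and 2.13 with the authors' log2 values. One probe represents FBXL13 on this array, so no second probe could be set beside it. In bulk samples such as these, more cells with a transcript and more of it per cell cannot be told apart.

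**Figure D1:**
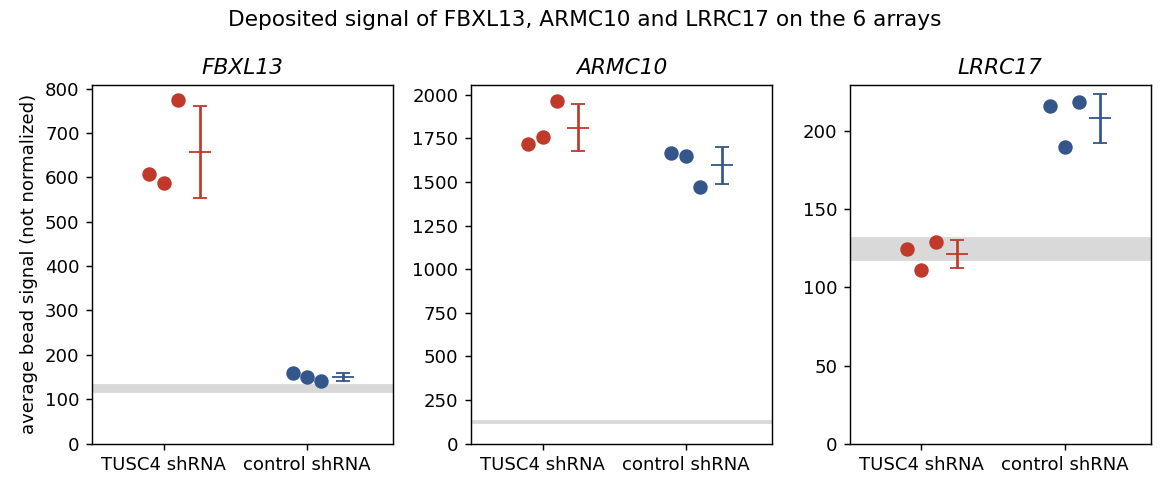
Deposited average bead signal (linear, not normalized) of FBXL13, ARMC10 and LRRC17 in the 3 TUSC4 shRNA samples (left) and the 3 control shRNA samples (right). Points are arrays, the bars beside them give the mean ± SD, and the grey band spans the lowest signal above background of the 6 arrays (117 to 132). FBXL13 lay at 587 to 775 in TUSC4 shRNA samples and at 142 to 160 in control shRNA samples, whereas LRRC17 was lower in every TUSC4 shRNA sample.

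The measured genes nearest to FBXL13 are its head-to-head neighbour and a gene nested in it. ARMC10, an armadillo repeat gene, starts 344 bases from the first FBXL13 start on the opposite strand, and the windows of the 2 starts share 157 bases. Its signal was 1717, 1756 and 1964 in the TUSC4 shRNA samples, against 1668, 1648 and 1474 in the control shRNA samples. Its log2 fold change was 0.45 ± 0.10 (limma adjusted p = 0.00352), a call that ended with median scaling (0.23) and without normalization (0.19). Its second probe gave 0.16, with a limma adjusted p of 0.273 when every probe was tested.

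LRRC17, a secreted leucine-rich repeat protein gene that lies inside FBXL13, changed in the opposite direction. Its signal was 124, 111 and 129 in the TUSC4 shRNA samples, against 216, 190 and 219 in the control shRNA samples. Only 1 of the 3 TUSC4 shRNA samples was above background. Its log2 fold change was -0.94 ± 0.10 (limma adjusted p = 8.95e-06), and its second probe gave -0.48 (limma adjusted p = 0.00755 over all probes). LRRC17 was lower past the threshold in all 17 alternatives, with a size that moved from -0.55 with the authors' values to -1.39 with an offset of 16.

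Among the 5 measured genes on each side of FBXL13, ARMC10 was the one that rose, while LRRC17, POLR2J (-0.39 ± 0.12) and NAPEPLD (-0.31 ± 0.10) fell. The POLR2J call was lost in 4 of the alternatives and the NAPEPLD call in 6. The other 6, POLR2J2, POLR2J3, UPLP, DPY19L2P2, PMPCB and DNAJC2, had log2 fold changes between 0.02 and 0.20, none past the threshold. Over the 50 measured genes nearest to FBXL13 the median log2 fold change was 0.18. Of these genes, 16 were higher and 5 lower past the threshold (13.3% and 13.7% of all genes).

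Across the 46 F-box genes above background, 12 rose, 4 fell and 30 did not pass the threshold. The 12 that rose were 26.1% of them, beside 13.3% of all genes tested. The 4 that fell were 8.70%, beside 13.7% of all genes, and the 16 together were 34.8%, beside 27.0% of all genes. The median log2 fold change of the 46 was 0.04, against 0.00 for all genes, and their median size without sign was 0.23, against 0.17. The groups did not overlap for 23 of the 46 genes, beside 40.5% of all genes. Of these, 14 were higher and 9 lower, beside 20.0% and 20.5% of all genes.

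The balance between rises and falls rests on how the arrays were scaled. The median signals were 118, 114 and 126 on the TUSC4 shRNA arrays, against 128, 123 and 123 on the control shRNA arrays. TUSC4 shRNA replicates 1 and 2 were thus dimmer than every control shRNA array, and replicate 3 was not. With median scaling 2 F-box genes were called higher and 8 lower (4.05% and 22.6% of all genes), and without normalization 1 was higher and 8 lower (2.51% and 23.0%). Under these 2 settings the median gene stood at -0.12 and -0.16 on the log2 scale. A rise or a fall is thus stated against the median gene after quantile normalization. All 16 called F-box genes kept their direction in each of the 17 alternatives, and 14 of them lost the call in at least 1, while FBXL13 passed the threshold in all 17. In the deposited signal, with no scaling, only FBXL13, FBXO4 and FBXO31 were higher in every TUSC4 shRNA sample than in every control shRNA sample (3.95% of all genes), and 16 of the 46 were lower (34.5% of all genes).

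**Figure D2:**
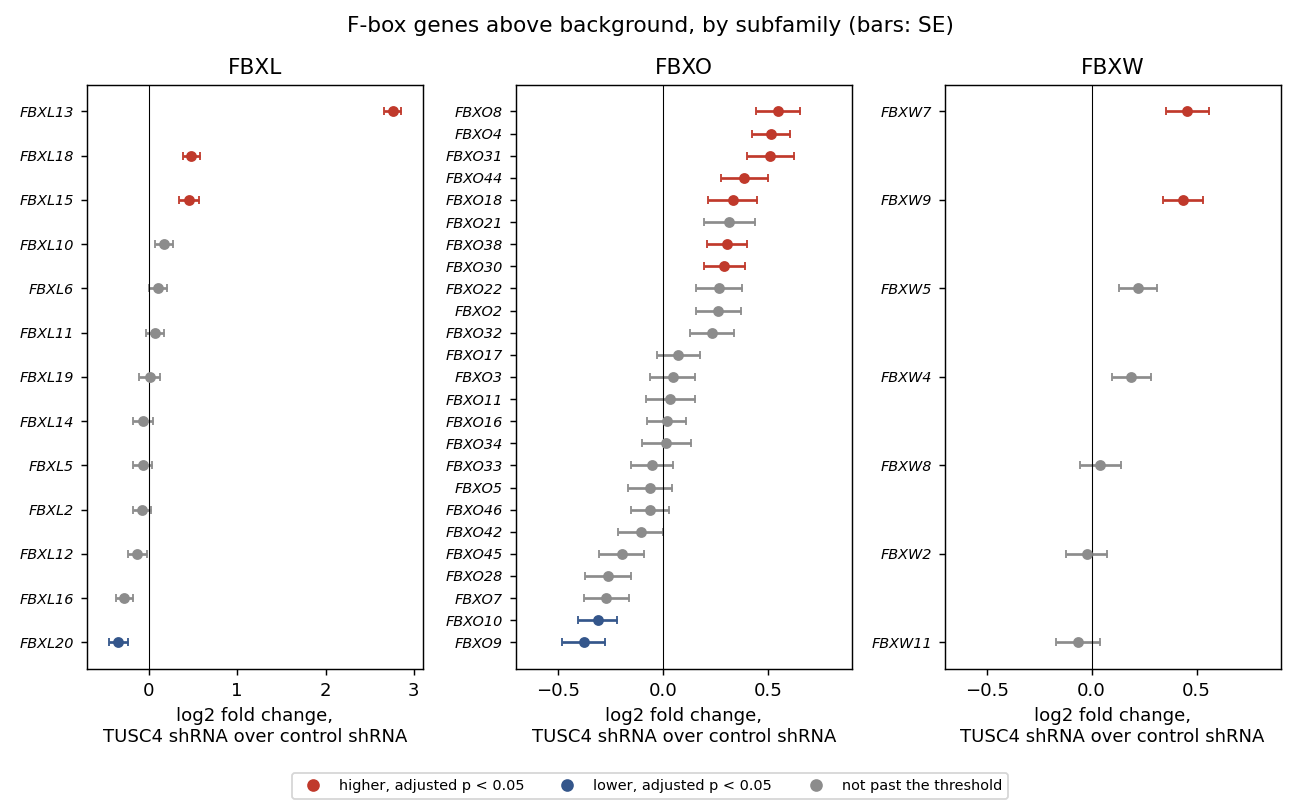
Log2 fold change of 45 F-box genes above background (TUSC4 shRNA over control shRNA), by subfamily, with bars for the SE and colours for genes past a limma adjusted p of 0.05. FBXL13 stands at 2.76, and all others drawn lie between -0.38 and 0.55. The horizontal axis of the FBXL panel is wider than that of the other panels.

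Among the 14 FBXL genes, 3 rose (21.4%, beside 13.3% of all genes) and 2 fell (14.3%, beside 13.7%), with a median log2 fold change of -0.03. After FBXL13 the rises were FBXL18 and FBXL15. FBXL18, the brightest FBXL gene, had log2 intensities of 10.35, 10.58 and 10.47 in the TUSC4 shRNA samples, against 10.05, 10.01 and 9.89 in the control shRNA samples. FBXL15, whose product targets the ligase SMURF1 of the BMP pathway, had 7.59, 7.80 and 8.01 in the TUSC4 shRNA samples, against 7.23, 7.38 and 7.44 in the control shRNA samples. Neither pair of groups overlapped. The log2 fold changes were 0.48 ± 0.10 for FBXL18 and 0.45 ± 0.11 for FBXL15 (limma adjusted p = 0.00200 and 0.00785), and both calls ended with median scaling (0.26 each).

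FBXL20, known in mouse synapses as SCRAPPER, fell. Its log2 intensity was 7.69, 8.08 and 7.95 in the TUSC4 shRNA samples, against 8.19, 8.30 and 8.25 in the control shRNA samples (-0.34 ± 0.11, limma adjusted p = 0.0282). Its call was lost with an offset of 16 and without any one of the 3 control shRNA samples or TUSC4 shRNA replicate 1, with values between -0.40 and -0.23, and it was -0.60 without normalization.

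The other 9 FBXL genes did not pass the threshold. The histone demethylase gene FBXL10, second in brightness in this subfamily, had 0.17 ± 0.10 (limma adjusted p = 0.238), and its relative FBXL11 had 0.07 ± 0.10. The array also lists a probe under the symbol KDM2B, which had -0.06 ± 0.11. FBXL5, the iron sensor that targets the iron regulatory protein IREB2, had -0.07 ± 0.11. FBXL16, named after its value was seen, was called lower in 6 of the 17 alternatives, among them an offset of 16 (-0.43) and median scaling (-0.34), and missed the threshold here at -0.28 ± 0.10 (limma adjusted p = 0.0507), with 6.43 as its mean log2 intensity in TUSC4 shRNA samples and 6.71 in control shRNA samples.

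**Figure D3:**
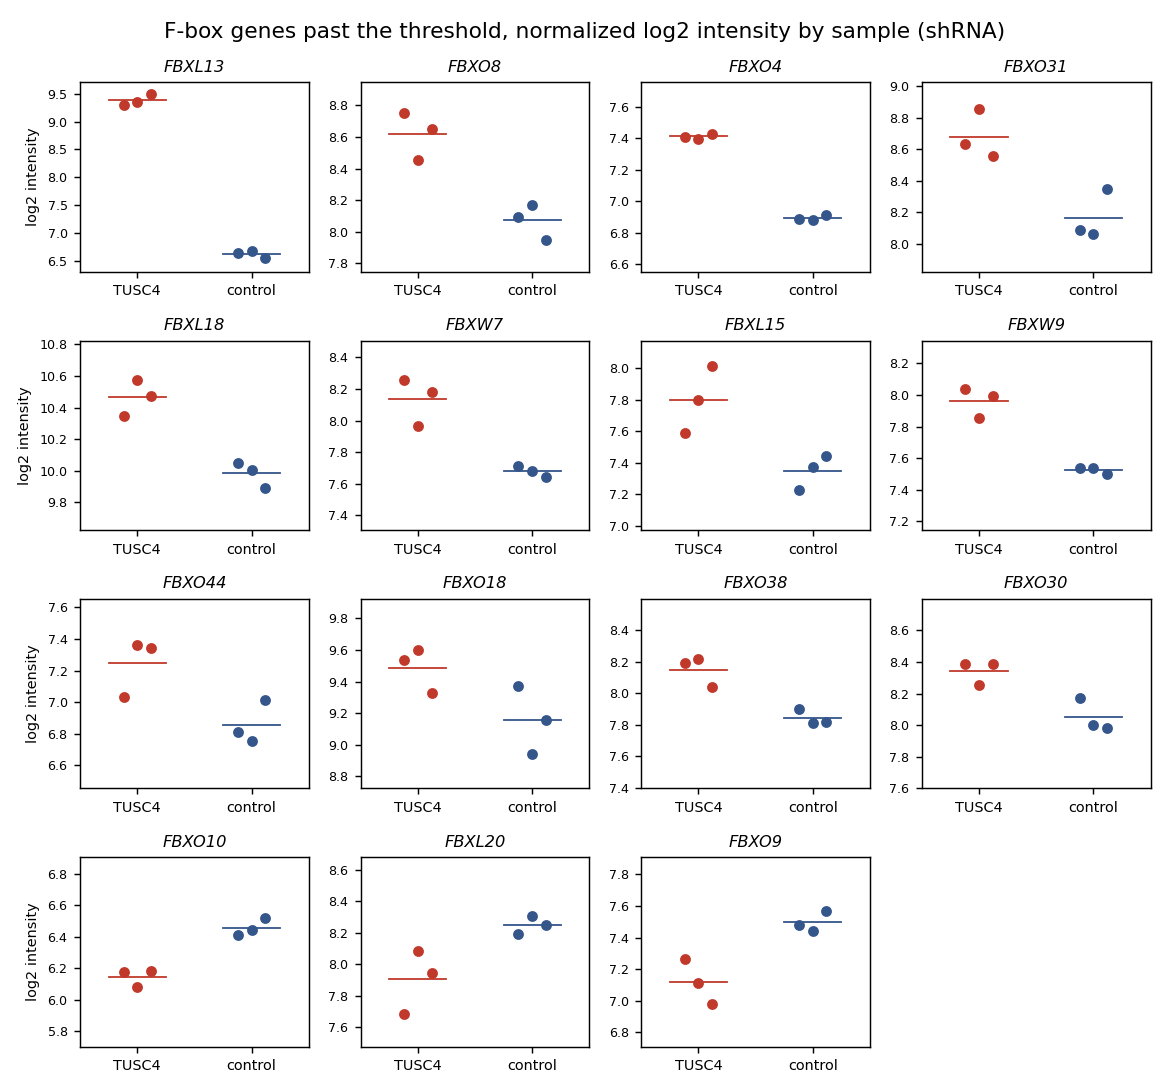
Normalized log2 intensity of 15 F-box genes past the threshold, in the 3 TUSC4 shRNA samples (left, red) and the 3 control shRNA samples (right, blue), ordered by fold change from FBXL13 down. Lines are group means, and every panel spans the same number of log2 units except that of FBXL13, whose span is wider. The groups are apart in every panel except FBXO18, where 9.33 in 1 TUSC4 shRNA sample lies below 9.37 in 1 control shRNA sample.

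Among the 25 FBXO genes, 7 rose (28.0%, beside 13.3% of all genes) and 2 fell (8%, beside 13.7%), with a median log2 fold change of 0.05. FBXO4 and FBXO31, which are among the receptors reported for cyclin D1, rose. FBXW8, also reported for it, had 0.04 ± 0.10 and was not past the threshold, and SKP2, another, is described with the F-box genes of other symbols. FBXO4 had log2 intensities of 7.41, 7.40 and 7.43 in the TUSC4 shRNA samples, against 6.89, 6.88 and 6.92 in the control shRNA samples. It had the tightest groups of the called genes and changed by 0.51 ± 0.09 on the log2 scale (limma adjusted p = 0.000608). Its second probe gave 0.38 (limma adjusted p = 0.00766 over all probes). The FBXO4 call held with median scaling (0.36) and was lost without normalization (0.32, limma adjusted p = 0.0671). FBXO31 had 8.63, 8.85 and 8.56 in the TUSC4 shRNA samples, against 8.09, 8.07 and 8.35 in the control shRNA samples. That gave 0.51 ± 0.11 (limma adjusted p = 0.00284), a call that ended with median scaling (0.28).

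FBXO8 and FBXO44 rose as well. FBXO8, which carries a Sec7 domain and acts on the small GTPase ARF6, had log2 intensities of 8.75, 8.46 and 8.65 in the TUSC4 shRNA samples, against 8.10, 8.17 and 7.95 in the control shRNA samples. Its log2 fold change of 0.55 ± 0.11 (limma adjusted p = 0.00122) was the largest after that of FBXL13, and the call ended with median scaling (0.32, limma adjusted p = 0.0852). Of its 50 nearest measured genes on chromosome 4, 24 were higher and 3 lower past the threshold (13.3% and 13.7% of all genes). Their median was 0.23, and the part of this stretch in the FBXO8 result was not tested. Neighbours leaned the same way as FBXW7 (median 0.18, 13 higher, 2 lower), FBXL18 (0.08, 14, 2) and FBXO44 (0.10, 9, 2). So did those of FBXO10 (-0.17, 3, 14) and FBXL20 (-0.14, 3, 11). Neighbours leaned the other way for FBXO4 (-0.11, 3, 13), FBXO38 (-0.09, 4, 7), FBXW9 (-0.05, 5, 8) and FBXO30 (-0.04, 4, 5). Medians for FBXL15, FBXO18 and FBXO31 were 0.02 to 0.03, and none of this was tested. FBXO44 encodes a receptor reported to ubiquitinate BRCA1, the protein named in the study's title. It had 7.04, 7.36 and 7.35 in the TUSC4 shRNA samples, against 6.81, 6.75 and 7.01 in the control shRNA samples. The TUSC4 shRNA sample at 7.04 lay just above the control shRNA sample at 7.01, and the log2 fold change was 0.39 ± 0.11 (limma adjusted p = 0.0173). The FBXO44 call was lost with median scaling (0.25), without normalization (0.21), without control shRNA replicate 1 or 2 (0.36 and 0.34) and without TUSC4 shRNA replicate 2 (0.33). Its measured relatives with the same F-box-associated domain, the glycoprotein receptor FBXO2 (0.26 ± 0.11) and FBXO17 (0.07 ± 0.10), did not pass.

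The smallest FBXO rises were those of FBXO18 (0.33 ± 0.12), FBXO38 (0.31 ± 0.10) and FBXO30 (0.29 ± 0.10). FBXO18 encodes a DNA helicase that restrains homologous recombination. FBXO38 targets PD-1, a receptor on T cells, and FBXO30 promotes muscle wasting in mice. Their limma adjusted p values were 0.0474, 0.0261 and 0.0365, and the calls were lost in 11, 9 and 8 of the 17 alternatives. With median scaling their log2 fold changes were 0.09, 0.07 and 0.06. Without normalization they were 0.05, 0.03 and 0.02. The second FBXO38 probe gave 0.15 (limma adjusted p = 0.318 over all probes), while the second FBXO30 probe gave 0.38 (limma adjusted p = 0.0311 over all probes).

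FBXO9 and FBXO10 fell. FBXO9, which has been linked to mTORC1 signalling through the proteins TEL2 and TTI1, had log2 intensities of 7.27, 7.11 and 6.98 in the TUSC4 shRNA samples, against 7.48, 7.44 and 7.57 in the control shRNA samples. The log2 fold change was -0.38 ± 0.10 (limma adjusted p = 0.0117), and it missed the threshold without control shRNA replicate 3 (-0.34, limma adjusted p = 0.0574). Without normalization it was -0.59. Of its 50 nearest measured genes on chromosome 6, 21 were lower and 4 higher past the threshold (13.7% and 13.3% of all genes). Their median was -0.20, and the part of this stretch in the FBXO9 result was not tested. FBXO10, which targets the survival protein BCL2, was above background in all 3 control shRNA samples and in no TUSC4 shRNA sample. Its log2 intensity was 6.18, 6.08 and 6.18 in the TUSC4 shRNA samples, against 6.41, 6.44 and 6.52 in the control shRNA samples. With the lowest level above background set as the floor of each array, and with the correction and offset used, FBXO10 was at least 1.10-fold lower in TUSC4 shRNA samples. This bound was not tested, and the limma adjusted p of 0.0216 is from the fit of the values without the floor. The authors' values (-0.17) and uncorrected signal (-0.19) ended the call, and so did the fits without control shRNA replicate 3 (-0.28) and without TUSC4 shRNA replicate 2 (-0.28).

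The other 16 FBXO genes did not pass. FBXO5, the brightest of the subfamily, encodes the inhibitor of the anaphase-promoting complex known as EMI1 and had -0.06 ± 0.10, with 0.13 from its second probe. FBXO21, the next in brightness, had 0.32 ± 0.12 (limma adjusted p = 0.0665), and its dimmer probe passed when every probe was tested (0.28, limma adjusted p = 0.0365). FBXO7, a gene of inherited parkinsonism, had -0.27 ± 0.11 (limma adjusted p = 0.0793), with 0.02 and -0.10 from its other probes. It was called lower with median scaling (-0.51, limma adjusted p = 0.00576), without normalization (-0.55) and without TUSC4 shRNA replicate 2. FBXO32, known as atrogin-1 for its role in muscle wasting, had 0.23 ± 0.11. FBXO11, the receptor for BCL6, had 0.04 ± 0.12, and its 4 probes above background ranged from -0.09 to 0.22.

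Among the 7 FBXW genes, 2 rose (28.6%, beside 13.3% of all genes) and 0 fell by limma, at an adjusted or an unadjusted p under 0.05 (beside 13.7% of all genes at the adjusted p). Their median log2 fold change was 0.19. FBXW7 is the receptor for cyclin E, MYC, JUN, NOTCH1 and mTOR itself. Its brightest probe had log2 intensities of 8.25, 7.97 and 8.18 in the TUSC4 shRNA samples, against 7.71, 7.68 and 7.64 in the control shRNA samples. The log2 fold change was 0.46 ± 0.10 (limma adjusted p = 0.00325). Its other probes gave 0.26 (limma adjusted p = 0.165 over all probes) and -0.05 (0.783), and the call was lost with the mean of the 3 (0.22). FBXW9 had 8.04, 7.85 and 7.99 in the TUSC4 shRNA samples, against 7.54, 7.54 and 7.50 in the control shRNA samples, a difference of 0.44 ± 0.10 (limma adjusted p = 0.00292). Both calls ended with median scaling (0.24 for FBXW7 and 0.22 for FBXW9).

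Neither of the brightest FBXW genes, FBXW11 and FBXW5, passed the threshold. FBXW11 is a close relative of BTRC, the receptor for beta-catenin and the NF-kB inhibitor, and had -0.07 ± 0.11. FBXW5, which has been reported to act on the mTORC1 inhibitor TSC2, had 0.22 ± 0.09 (limma adjusted p = 0.0893) and passed with the authors' values (0.18, limma adjusted p = 0.0450). FBXW2, FBXW4 and FBXW8 had log2 fold changes of -0.02, 0.19 and 0.04.

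**Figure D4:**
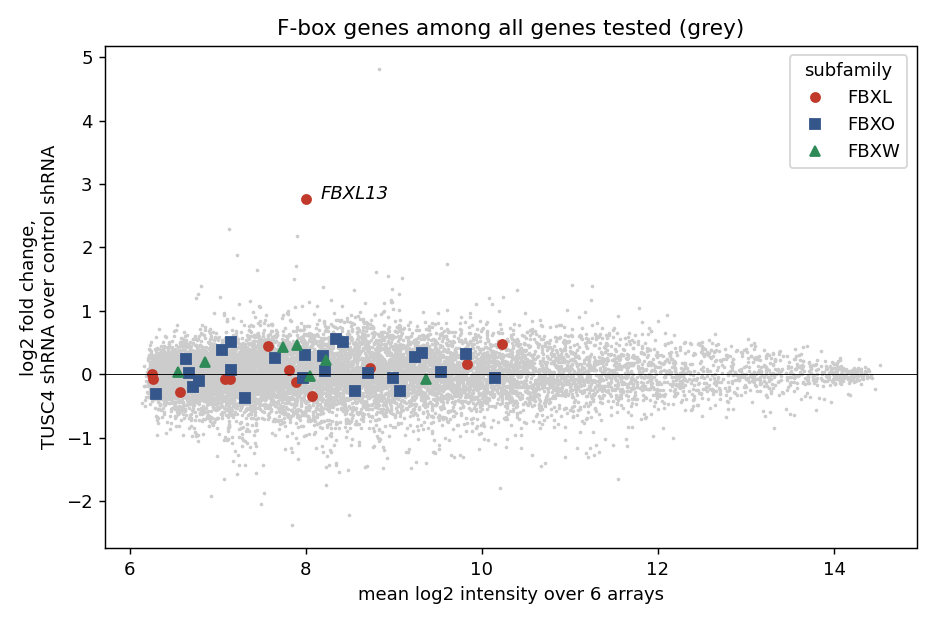
Log2 fold change (TUSC4 shRNA over control shRNA) against mean log2 intensity over the 6 arrays for the 15300 genes tested (grey) and 45 F-box genes, marked by subfamily. The F-box genes had a median level of 7.93, against 7.63 for all genes, and FBXL13 at 2.76 is the one far from the line of no change.

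The rest of the SCF system was measured through 4 gene lists, given as counts beside the shares of all genes (13.3% higher, 13.7% lower). Of 33 measured genes of the SCF core and its regulation by NEDD8, 3 rose and 3 fell, with a median log2 fold change of -0.12. The core subunits CUL1 (-0.21 ± 0.11), RBX1 (-0.16 ± 0.12) and SKP1, listed as SKP1A (-0.09 ± 0.11), were not past the threshold. SENP8, which processes NEDD8, had 0.37 ± 0.10, UBE2M, which loads it, 0.34 ± 0.10, and the partner ligase ARIH1 0.33 ± 0.10. The ubiquitin-conjugating enzyme gene UBE2D2 had -0.43 ± 0.10, DCUN1D4, a co-ligase for NEDD8, -0.40 ± 0.10 and UBA3, part of the NEDD8-activating enzyme, -0.35 ± 0.11. With the mean of its 3 probes UBE2D2 had -0.17 (limma adjusted p = 0.175). The second DCUN1D4 probe gave -0.24 (limma adjusted p = 0.0984 when every probe was tested). Of the 17 alternatives, 8 ended the ARIH1 call, 7 that of UBE2M, 5 that of UBA3 and 4 that of SENP8. Without normalization the values were 0.06 for ARIH1, 0.08 for UBE2M, -0.63 for UBA3, -0.68 for DCUN1D4 and 0.30 for SENP8. SENP8, above background in 3 TUSC4 shRNA samples and 1 control shRNA sample, had 0.20 with the authors' values.

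Among F-box genes that carry other symbols, 5 of 8 were measured and SKP2 was the one past the threshold. SKP2, the receptor for the cell cycle inhibitor p27, had a signal of 1509, 1287 and 1397 in the TUSC4 shRNA samples, against 3493, 2619 and 2555 in the control shRNA samples. Its log2 fold change was -0.83 ± 0.12 (limma adjusted p = 9.00e-05), its other probes gave -0.60 and -0.41, both past the threshold, and the call held in all 17 alternatives. CDKN1B, which encodes p27, was also lower, at -0.52 ± 0.13 (limma adjusted p = 0.00873), or -0.46 without control shRNA replicate 1 (limma adjusted p = 0.0512). The value was -0.35 without TUSC4 shRNA replicate 2 and -0.80 without normalization. Of 6 other cullins measured, CUL5 fell (-0.50 ± 0.13, or -0.77 without normalization) and CUL9 rose (0.26 ± 0.09, limma adjusted p = 0.0491), and the CUL9 call was lost in 13 of the 17 alternatives.

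Of 23 measured genes whose proteins are known targets of SCF ligases, 5 rose and 2 fell, with a median of 0.09. These values are transcripts, and protein was not analysed here. CCND1, which encodes cyclin D1, rose by 0.64 ± 0.12 (limma adjusted p = 0.000846) and passed in all 17 alternatives. PDCD4, a translation inhibitor gene, rose by 0.55 ± 0.10, with 0.15 from its other probe and a call that ended without normalization (0.30). The mitotic brake WEE1 had 0.51 ± 0.11 and NOTCH1 0.41 ± 0.10, and both calls ended with median scaling and without normalization. CRY2, named here after its value was seen, was the fifth, at 0.27 ± 0.09 (limma adjusted p = 0.0437). The clock repressor gene CRY1 fell by 0.78 ± 0.12 (limma adjusted p = 0.000151), with -0.91 from its other probe. The other gene that fell was CDKN1B.

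**Figure D5:**
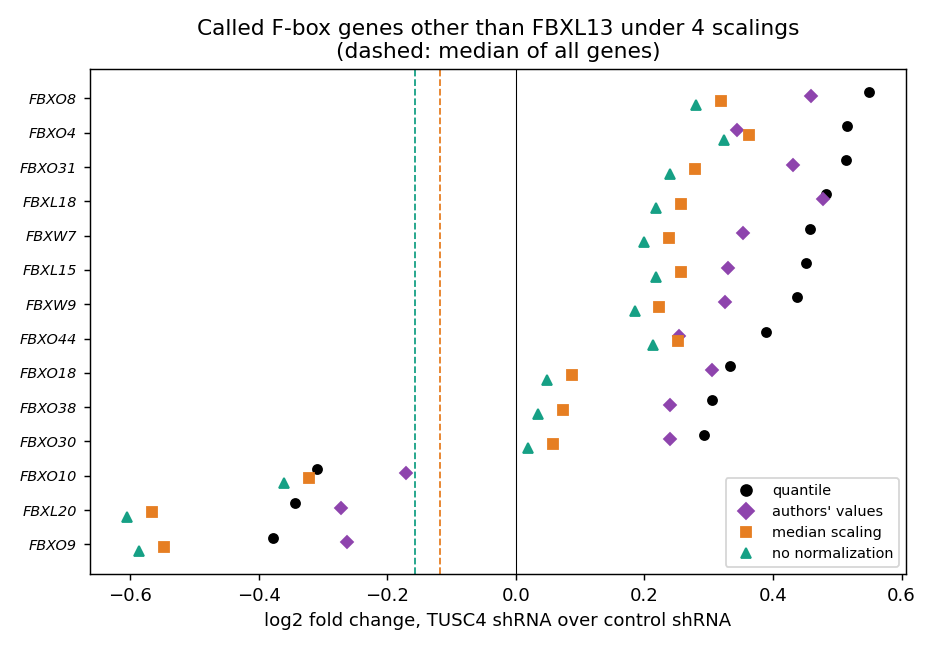
Log2 fold change (TUSC4 shRNA over control shRNA) of 14 called F-box genes other than FBXL13 with quantile normalization, the authors' values, median scaling and no normalization, and dashed lines at the median of all genes for the last 2 (-0.12 and -0.16). Every gene stays on its side of 0, and the values of FBXO18, FBXO38 and FBXO30 come to within 0.09 of 0 under median scaling or no normalization.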

How the data were processed

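The first deposited table held bead intensities (average signal, linear), not normalized between arrays, per the file headers and the values. BeadStudio is named in the submitters' processing notes; its version and settings are not given in the sources used here. A second table gave the authors' log2 values of the same arrays, with a median of 6.89 in all 6 columns and a rank correlation of 0.999999 with the signal of the same array. The offset and centring of these log2 values are unknown, and they served as an alternative.

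The signal was corrected with limma's normexp (offset 50, which shrinks the changes of dim genes), quantile normalized and put on the log2 scale. Background was estimated on each array from the mode of the log2 signal (bandwidth 0.05) and the spread of the probes below it. A probe was kept where this p was under 0.05 on 3 or more arrays, which left 20657. Each gene was represented by its brightest kept probe. The groups were compared with lmFit and eBayes (limma 3.58.1, R 4.3.3) over all 6 arrays, with Benjamini-Hochberg adjustment over 15300 genes. Every SE is the moderated one of this fit, in which eBayes draws the variance of a gene towards that of all genes tested. The fit was tested on simulated log2 values, with known changes added to 50 genes of each size. It recovered 12% of changes of 0.3, 42% of 0.5, 96% of 1 and 100% of 2, with 5 false calls. Fewer genes changed in the simulation than were called here, so its recovery is not that of these data. All arrays lay on 1 BeadChip, where the groups took adjacent blocks of positions, and position and group cannot be told apart. The number of arrays limits the precision.

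The members, gene lists and role groups were chosen with earlier results of these data known. Named genes were FBXL13, TUSC4, every called member, the 2 brightest members of each subfamily, members whose probes differed in call or whose groups lay on either side of background, up to 4 called genes in each direction from each list, and the 5 measured genes on each side of FBXL13. Other members are given for their known roles, and 1 called member, which stays in the counts, is not reported here. Alternatives covered scaling, background correction, filter, probe choice, threshold, replicate block and leaving out each sample. Of the array symbols, 21069 matched a RefSeq name (GRCh38.p14), which served for names and neighbours. The array's own genome build is not given in the labels.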

Additional observations from a re-analysis of the deposited data

How the results depend on the processing

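FBXL13 passed the threshold with the same sign in all 17 alternatives, with a log2 fold change between 2.13 and 3.29. With median scaling 2 F-box genes were higher and 8 lower (4.05% and 22.6% of all genes), with 5 FBXO and 0 FBXW genes called. Without normalization 1 was higher and 8 lower (2.51% and 23.0% of all genes), with 4 FBXO and 0 FBXW genes called. At an adjusted p under 0.01 these counts were 8 higher and 1 lower (7.76% and 8.43% of all genes). With that threshold 3 FBXO genes were called, and 2477 of all genes in both directions. The mean of a gene's probes left 1 FBXW gene called, with 13% of all genes higher and 13.6% lower. Leaving out 1 sample at a time gave 9 to 12 F-box genes higher and 1 to 5 lower. The shares of all genes were 9.69% to 13.4% higher and 10.2% to 13.3% lower. In these fits 4 to 9 FBXO genes were called, and 3037 to 4084 of all genes in both directions. The lowest counts of lower F-box genes (1) and of FBXO genes (4) came without control shRNA replicate 3. The causes were not tested.

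Of the 16 called F-box genes, 14 lost their call in at least 1 alternative and 0 turned direction. With the replicate number as a block, 13 F-box genes were higher and 4 lower, beside 13.2% and 13.5% of all genes. FBXO21 was the one added, and all 16 calls were kept. The shared numbers were not taken as pairs, since the deviations of same-numbered samples correlated at 0.10, 0.05 and -0.11. Genes near background, such as FBXO10, have signals close to the lowest that can be told from it.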
